A study of Mus musculus with 3 samples.

Results

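The Myc family and the Max network were followed through an epithelial to mesenchymal transition of mouse ovarian surface epithelium, the single cell layer that covers the ovary. The genes sought were Mycn, Myc and Mycl, their partner Max, and the antagonists Mxd1, Mxd4, Mxi1 and Mnt. They were taken from the gene names printed on the array, older names included (Nmyc1 for Mycn, Mad for Mxd1). Of these 8 genes, 4 were found: Mycn, Myc and Mxd1 with 1 probe each and Mxi1 with 2 probes, out of 10008 named genes on the array. Max, Mxd4 and Mnt were not analysed here, and Mycl only through 1 probe under another name, described apart.

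RNA came from 3 separate primary cultures of ovarian surface cells of superovulated C57/Bl6 females. Each culture was divided: one part stayed epithelial in 2.5% fetal bovine serum (FBS), and the other was held for 1 week in 15% FBS, which made it mesenchymal. The epithelial and the mesenchymal RNA of a culture shared 2 Agilent 2-colour arrays with exchanged dyes, which makes 6 arrays. A value is the log2 ratio of mesenchymal over epithelial RNA, averaged over the 2 arrays of a culture. Means are over the 3 cultures with their SD, and n is 3 where none is stated. A gene is said to rise, fall or change where limma's Benjamini-Hochberg adjusted p was under 0.05 over all 17582 features tested. Each culture changed in serum and in phenotype at once, and the parts of these in a difference cannot be told apart. In such bulk RNA, fewer cells of a type and less RNA per cell cannot be told apart either.

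MYC proteins (MYC, MYCN, MYCL) are basic helix-loop-helix leucine zipper transcription factors that bind DNA as dimers with MAX, typically at the E-box CACGTG, and raise the expression of genes for ribosome assembly, metabolism and the cell cycle. MXD1, MXI1, MXD4 and MNT compete for MAX, bind the same sites and recruit SIN3 corepressors. MYC is widely expressed in dividing cells and is a classic early response gene to serum, whereas MYCN is best known from embryonic tissues and from neuroblastoma.

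The letters of the regulatory regions are shown for the gene that carries the main result and for the binding site that the network shares. RefSeq's promoter windows (build GRCm38.p6, 250 bases before and 50 after the start site) held an entry for 7 of the 8 genes. In the first sequence, the 250 bases before the start of Mycn on the minus strand, capitals mark both copies of TTTGGCGC, a form of the site bound by E2F factors. The other lines are windows around an E-box, marked in capitals, in the promoters of the network genes Mxd4, Mnt and Max and of Apex1, a DNA repair endonuclease gene and MYC target.
Mycn, chr12:12941837-12942086: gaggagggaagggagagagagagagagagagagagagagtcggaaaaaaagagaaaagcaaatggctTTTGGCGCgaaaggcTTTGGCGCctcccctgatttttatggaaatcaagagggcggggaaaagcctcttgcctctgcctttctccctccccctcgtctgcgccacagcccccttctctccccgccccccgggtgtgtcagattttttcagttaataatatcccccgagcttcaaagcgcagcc
Mxd4, minus strand, chr5:34187914-34187939: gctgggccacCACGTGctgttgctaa
Mnt, plus strand, chr11:74830791-74830816: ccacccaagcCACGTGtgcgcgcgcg
Max, minus strand, chr12:76962236-76962261: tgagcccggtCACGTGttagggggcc
Apex1, plus strand, chr14:50924915-50924940: gctccagaacCACGTGggggcggagc

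Both strands of each window were searched for CACGTG and for TTTGGCGC, and the motifs did not overlap one another. In Mycn, TTTGGCGC began at -183 and again at -168 from the start site, and no CACGTG was found in its window. TTTGGCGC was in the windows of 0.585% of all 27025 genes and of 1.13% of the 7007 named genes tested here. CACGTG was in the windows of Max, Mnt and Mxd4, against 8.09% of all genes and 12.5% of those tested. The windows of Mycl, Mxd1 and Mxi1 held neither motif. A match describes these letters and does not show that a factor bound there.

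Mycn was the one network gene of the 4 measured that changed between the phenotypes. On the 3 arrays with epithelial RNA in Cy3, the Mycn log2 ratio was -3.05 in culture 1, -2.60 in culture 2 and -2.67 in culture 3. On the 3 arrays with the dyes exchanged it was -2.24, -1.80 and -1.64. Every array placed Mycn lower in mesenchymal RNA, and in each culture the array with epithelial RNA in Cy3 gave the larger difference. The dye effect behind this offset, as log2 Cy5 over Cy3, was -0.44 (adjusted p = 0.000472), and it cancels in the mean of a culture's 2 arrays. Such an effect was called for Mycn and Mxi1 (its brighter probe) of the 4 network genes and for 57.1% of all features.

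Per culture, the Mycn log2 ratios were -2.64, -2.20 and -2.16. Mycn thus fell by 2.33 ± 0.27 on the log2 scale, a level 5.04-fold lower in mesenchymal cells (95% interval of the log2 ratio -2.60 to -2.06, adjusted p = 0.000215). It was the 11th lowest log2 ratio of the 17582 features, and it was one of 30 features (0.171%) that fell at least 4-fold. Over all features, 2088 changed (11.9%), 1040 of them lower (5.92%) and 1048 higher (5.96%), and the median log2 ratio was -0.0030. One called gene among 4 is a count too small to set against that share.

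As separate levels in log2 intensity, the Mycn probe read 12.55, 11.98 and 11.80 in epithelial RNA of cultures 1, 2 and 3. In mesenchymal RNA of the same cultures it read 9.91, 9.78 and 9.64. The means of the epithelial and mesenchymal levels were 12.11 ± 0.39 and 9.78 ± 0.13. The spread among cultures was wider on the epithelial side, where culture 1 was highest. Mesenchymal RNA still gave a Mycn signal 5.89 to 32.7 times the local background, against 29.2 to 141 times for epithelial RNA, and no Mycn spot was saturated or flagged as an outlier. Signal over local background does not gauge nonspecific signal, and 18.5% to 81.5% of negative control spots were flagged well above background too. How much of the mesenchymal reading is Mycn RNA was not tested.

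**Figure D1:**
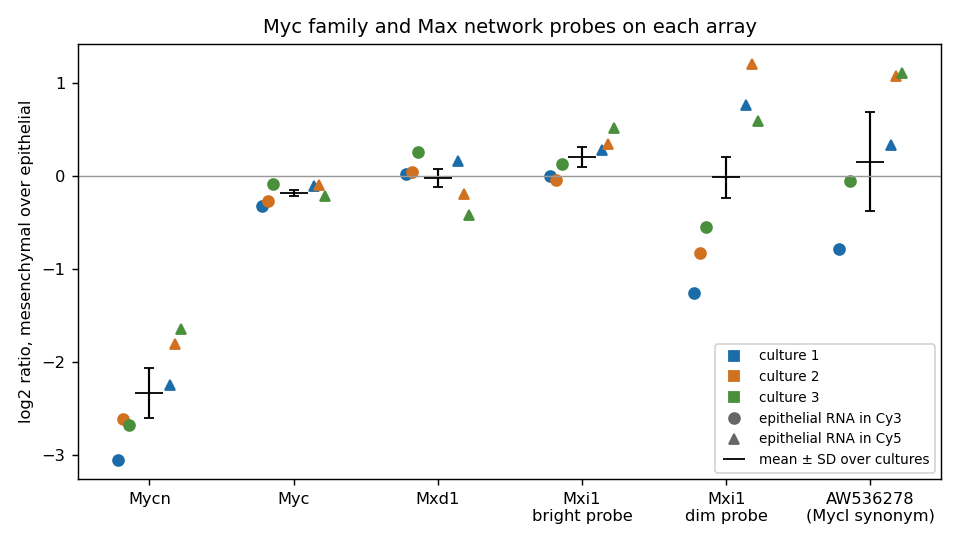
Log2 ratio of mesenchymal over epithelial RNA (vertical axis) for each network probe on each of the 6 arrays, with circles for arrays with epithelial RNA in Cy3, triangles for exchanged dyes, colours for the 3 cultures and black bars for the mean ± SD over cultures. Every Mycn point lies at -1.64 or below, the Myc points lie just under 0, and the dim Mxi1 probe and AW536278 split by dye.

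Myc, the widely expressed family member, did not pass the threshold. Its log2 ratios were -0.32, -0.26 and -0.08 on the arrays with epithelial RNA in Cy3, and -0.11, -0.09 and -0.21 with the dyes exchanged. All 6 Myc values were below 0, a same sign on all arrays that 10.6% of features had. The mean over cultures was -0.18 ± 0.034 (95% interval -0.34 to -0.013, adjusted p = 0.177, unadjusted p = 0.0384 in limma). The interval excludes a Myc difference as large as that of Mycn and does not exclude a small decrease.

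The Myc probe read 11.28, 11.26 and 11.33 in log2 intensity in epithelial RNA and 11.07, 11.08 and 11.19 in mesenchymal RNA. These levels lay close together, at 11.29 ± 0.036 and 11.11 ± 0.064. The Myc probe had almost no dye offset (-0.042), and its signal was at least 12.9 times the local background on every array.

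Set side by side within a culture, the Mycn log2 ratio minus that of Myc was -2.43, -2.02 and -2.01 in cultures 1, 2 and 3, a mean difference of -2.16 ± 0.24. All 3 cultures gave this direction. The exact sign-flip test of this difference gave a two-sided p of 0.25, the smallest that 3 cultures allow. The corresponding mean differences were -2.31 ± 0.37 from Mxd1 and -2.54 ± 0.22 from Mxi1, again with all cultures below 0 and p = 0.25 in the exact test.

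**Figure D2:**
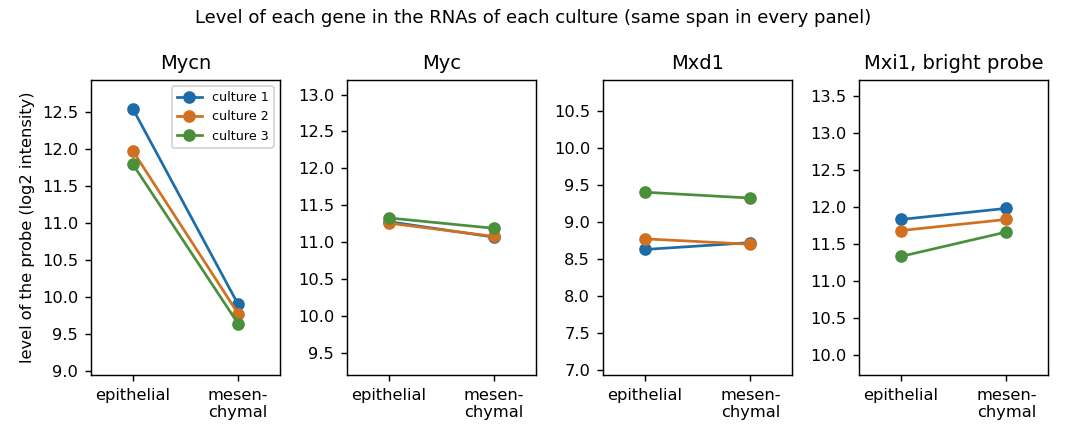
Level of each probe (log2 intensity, vertical axis) in the epithelial and mesenchymal RNA of the same culture, with a line for each of the 3 cultures and the same span in every panel. The Mycn lines drop from between 11.80 and 12.55 to between 9.64 and 9.91, while the lines of Myc, Mxd1 and the bright Mxi1 probe run nearly flat.

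Of the antagonists, Mxd1 encodes a repressor that rises as many cell types differentiate. Its log2 ratios were 0.02, 0.05 and 0.26 on arrays with epithelial RNA in Cy3, and 0.16, -0.20 and -0.42 with the dyes exchanged. The sign differed between the arrays of cultures 2 and 3. The mean was -0.02 ± 0.097 (95% interval -0.20 to 0.16, adjusted p = 0.922). The Mxd1 signal was 3.19 to 14.3 times the local background in epithelial RNA and 3.87 to 23.2 times in mesenchymal RNA. Mxd1 levels ran from 8.63 to 9.41 log2 intensity in epithelial RNA and from 8.70 to 9.33 in mesenchymal RNA, so the phenotypes overlapped and culture 3 was highest in both.

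Mxi1, another repressor of the MXD group, was measured by 2 probes of different brightness. The brighter one gave 0.0027, -0.041 and 0.14 on arrays with epithelial RNA in Cy3, and 0.28, 0.34 and 0.52 with the dyes exchanged. Its culture values were 0.14, 0.15 and 0.33, with a mean of 0.21 ± 0.10 (95% interval 0.024 to 0.39, adjusted p = 0.157, unadjusted p = 0.0325 in limma). The sign was positive on 5 of 6 arrays. Levels ran from 11.33 to 11.83 log2 intensity in epithelial RNA and from 11.66 to 11.98 in mesenchymal RNA and overlapped between cultures, although each culture's mesenchymal level was the higher one. Without culture 1, the mean was 0.24 and passed the threshold (adjusted p = 0.0126 in limma). That fit called 5154 features in place of 2088, and the Mxi1 value of culture 1 was close to that of culture 2.

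The dimmer Mxi1 probe followed the dye. It gave -1.26, -0.83 and -0.55 on arrays with epithelial RNA in Cy3 and 0.77, 1.21 and 0.59 with the dyes exchanged. Each dye orientation alone would have given an opposite direction, with means of -0.88 and 0.86. Averaged within cultures, the values were -0.24, 0.19 and 0.019, with a mean of -0.012 ± 0.22 and a 95% interval of -0.25 to 0.23. Its signal was between 1.52 and 10.9 times the local background. The probes of Mxi1 thus differed in mean, and neither passed the threshold.

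One further probe bears on Mycl, the third family member. It is printed under the clone name AW536278, which RefSeq lists as a synonym of Mycl and which lies outside the names searched. Its log2 ratios were -0.78 and -0.05 with epithelial RNA in Cy3 (cultures 1 and 3) and 0.34, 1.07 and 1.11 with the dyes exchanged. One spot of culture 2 was flagged as an outlier, so that culture was dropped and the mean was 0.16 ± 0.53 (n = 2, adjusted p = 0.733 in limma). As for the dim Mxi1 probe, its sign followed the dye (dye effect -0.57, adjusted p = 0.000631).

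The rest of the pathway was described by lists of genes chosen for their roles. Together 129 of 151 listed genes were measured: 10 rose, 14 fell and 105 did not pass the threshold. The share that changed was 18.6%, beside 11.9% of all features, and the median log2 ratio was -0.011 beside -0.0030. Many features carry no gene name, and named genes changed more often: of 7007 with a promoter window, 630 fell and 701 rose. The 18.6% therefore does not stand out from named genes. Of the 129 probes, 25 had a saturated spot for at least one RNA, and 8 were saturated for both RNAs on at least 5 of the 6 arrays, among them those of the glycolytic enzymes Pkm and Ldha, the nucleolar methyltransferase Fbl and the cyclin-dependent kinase Cdk4. Ratios near 0 at those probes are limited by the scanner's ceiling.

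**Figure D3:**
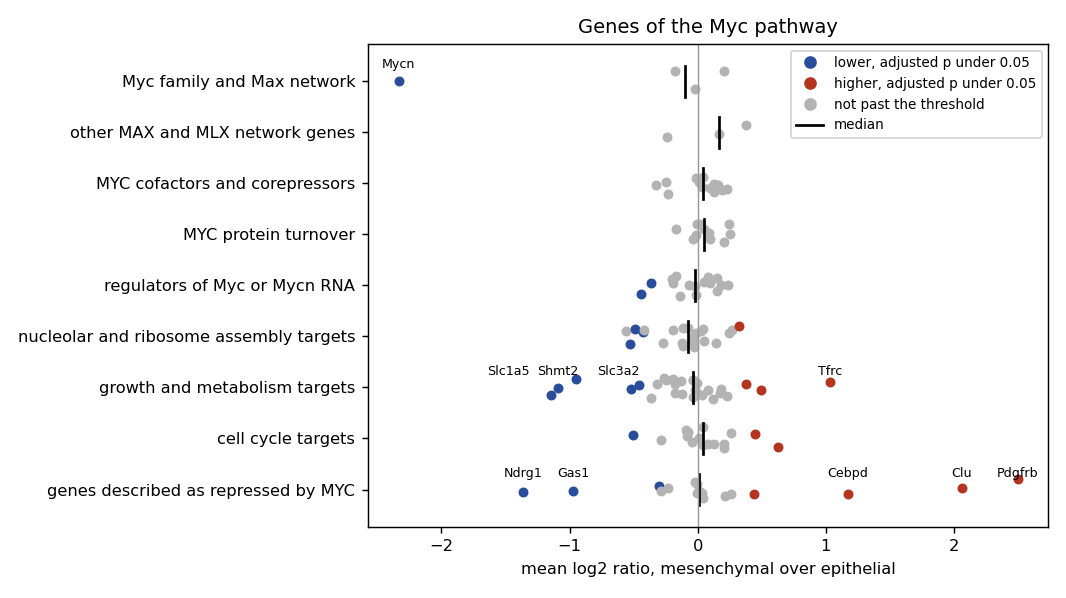
Mean log2 ratio of mesenchymal over epithelial RNA (horizontal axis) for every measured gene of the network and of 8 lists, with blue for genes that fell, red for genes that rose, grey for genes not past the threshold and a black bar for each list's median. All list medians lie between -0.076 and 0.16, the Mycn point stands far below its own group, and the widest scatter is in the genes described as repressed by MYC.

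Partners, cofactors and turnover factors held no gene that passed in the fit used throughout. Over all 17582 features, 4158 had an unadjusted p under 0.05 in limma, the background for the counts below. Of 5 other MAX and MLX network genes, 3 were measured and none passed in limma (1 had an unadjusted p under 0.05). Mlxipl, a glucose-responsive activator also called ChREBP, had a log2 ratio of -0.24 ± 0.049 (adjusted p = 0.0843), and Mga, a MAX partner, 0.16 ± 0.26 (adjusted p = 0.469). Mlxipl passed in the fit of the 6 arrays with a dye term and the replicate block (-0.24, adjusted p = 0.0335) and without culture 1 (adjusted p = 0.0125). It also followed the dye, with 0.29 from the arrays with epithelial RNA in Cy3 alone (adjusted p = 0.0248) and -0.77 from the others (adjusted p = 0.0061). None of 13 measured MYC cofactors and corepressors passed in limma (3 had an unadjusted p under 0.05, median 0.044), among them the corepressor scaffolds Sin3b (0.13 ± 0.12) and Sin3a (0.035 ± 0.086), whose other probes gave -0.32 and -0.15. With saturated probes left out, the former stood for Sin3a and passed (adjusted p = 0.0325). None of 11 genes of MYC protein turnover passed in limma (0 had an unadjusted p under 0.05, median 0.052), with Aurka, the mitotic kinase that stabilises MYCN protein, at 0.092 ± 0.21 and the ubiquitin ligase subunit Skp2 at 0.018 ± 0.14.

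Among 16 measured regulators of Myc or Mycn RNA, 2 fell and none rose (12.5% called, beside 11.9% of all features). Gli2, a transcription factor of Hedgehog signalling, fell by 0.44 ± 0.22 in log2 ratio (adjusted p = 0.0359), and Smad3, a mediator of TGF-beta signals, fell by 0.36 ± 0.13 (adjusted p = 0.0363). Both were below 0 on all 6 arrays. Each lost its call without culture 2 (adjusted p = 0.0572 for Gli2 and 0.14 for Smad3 in limma) or without culture 3 (0.127 for both), and with a trended, robust variance (0.0588 and 0.0679). Fits without culture 2 or culture 3 called fewer features in all, 1149 and 818 in place of 2088. E2f3, one of the E2F factors, had a log2 ratio of -0.29 ± 0.20 (adjusted p = 0.122), below 0 on all arrays, and E2f1 and E2f2 were not analysed here.

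Of 23 measured nucleolar and ribosome assembly targets, 3 fell, 1 rose and 19 did not pass (17.4% called beside 11.9% of all features, median -0.076). Ppan, a factor of large ribosomal subunit maturation, fell by 0.53 ± 0.038 (adjusted p = 0.00529). Rrp12, a ribosome export factor, fell by 0.49 ± 0.073 (adjusted p = 0.00836) and Rrs1, a ribosome biogenesis regulator, by 0.43 ± 0.16 (adjusted p = 0.0249). Rrs1 was above 0 on 2 of 6 arrays (dye effect -0.44) and Rrp12 on 1 (dye effect -0.38). The other probe of Rrp12 gave -0.34. On arrays with epithelial RNA in Cy5 alone, Rrp12 gave -0.11 and Rrs1 0.013, and neither was called. Mrto4, another large subunit assembly factor, rose by 0.32 ± 0.018 (adjusted p = 0.0309), although 3 of 6 arrays were below 0 (dye effect -0.76). The Mrto4 call ended in the fit of the 6 arrays with a dye term and the replicate block (adjusted p = 0.156), with median centring (0.0633) and with a trended, robust variance (0.0818). Without culture 3, none of these 4 genes passed, with an adjusted p of 0.066 for Ppan, 0.0713 for Rrp12, 0.127 for Rrs1 and 0.243 for Mrto4 in limma. That fit called 818 features in place of 2088, and the mean of Ppan stayed at -0.52. Without culture 2 adjusted p was 0.0563 for Rrs1 and 0.16 for Mrto4.

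The growth and metabolism targets scattered in both directions. Of 30 measured, 5 fell, 3 rose and 22 did not pass (26.7% called beside 11.9% of all features, median -0.040). Slc1a5, a glutamine transporter, fell by 1.15 ± 0.14 in log2 ratio (adjusted p = 0.000708). Its culture values were -1.26, -0.99 and -1.18, so no culture stood apart. Odc1, the rate-limiting enzyme of polyamine synthesis and a textbook MYC target, was named after its value was seen and fell by 0.46 ± 0.12 (adjusted p = 0.015). Its call ended without culture 2 (adjusted p = 0.0846) or culture 3 (adjusted p = 0.134).

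Other values in this list were less even. Shmt2, a mitochondrial enzyme of one-carbon metabolism, fell by 1.09 ± 0.081 (n = 2, adjusted p = 0.0027), while its other probe gave -0.23. The probe used had values of -1.04 and -1.15 in cultures 2 and 3 and none in culture 1, so its call could not be tested with either of them left out. Slc3a2, a subunit of amino acid transporters, fell by 0.95 ± 0.66 (adjusted p = 0.0473), with -0.19 in culture 1 against -1.38 and -1.29 in cultures 2 and 3, and its call ended without culture 2 (adjusted p = 0.103) or culture 3 (adjusted p = 0.217). With all cultures kept, the Slc3a2 call also ended with no background subtraction (adjusted p = 0.0644) and with a trended, robust variance (0.0509). Tfrc, the transferrin receptor, rose by 1.03 ± 0.18 (adjusted p = 0.00132), but its other probes gave 0.21 and 0.15, and the arrays with epithelial RNA in Cy3 alone gave -0.20. With saturated probes left out, Tfrc did not pass (0.15, adjusted p = 0.253).

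Among 16 measured cell cycle targets, 2 rose, 1 fell and 13 did not pass (18.8% called beside 11.9% of all features, median 0.043). Birc5, which encodes the mitotic protein survivin, rose by 0.62 ± 0.28 (adjusted p = 0.0187), with -0.36 at its other probe. Ccne1, the gene of cyclin E1, rose by 0.45 ± 0.081 (adjusted p = 0.0119). Cdc25a, a phosphatase that activates cyclin-dependent kinases, fell by 0.50 ± 0.076 (adjusted p = 0.00777), with 0.038 at its other probe. Without culture 3, adjusted p in limma was 0.0768 for Birc5, 0.0992 for Ccne1 and 0.0627 for Cdc25a, and without culture 2 it was 0.0832 for Ccne1.

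The list with the largest share of changed genes was that of genes described as repressed by MYC. Of 17 measured, 4 rose, 3 fell and 10 did not pass (41.2% called, median 0.012). Over all features 11.9% were called, and a larger share of named genes. Pdgfrb, which encodes a PDGF receptor of mesenchymal cells, rose by 2.50 ± 0.17 (adjusted p = 9.6e-05). Clu, which encodes the chaperone clusterin, rose by 2.06 ± 0.28 (adjusted p = 0.00032), and Cebpd, a transcription factor of growth arrest and inflammation, by 1.17 ± 0.42 (adjusted p = 0.00579). Cebpd had a dye effect of -0.99, and single dye orientations gave 0.19 (epithelial RNA in Cy3, adjusted p = 0.235 in limma) and 2.16. Ndrg1, a stress-induced gene named for its regulation by MYCN, fell by 1.36 ± 0.13 (adjusted p = 0.00035), below 0 on all 6 arrays. Members of this list therefore moved both ways while Mycn fell.

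The E-box was set beside these calls. Of the changed list genes with a RefSeq promoter window, CACGTG was in none of 10 that fell and in 1 of 7 that rose, Apex1. The Apex1 window held it 3 times, at -24, 1 and 22 from the start site, and only the first is shown above. Apex1 rose by 0.38 ± 0.10 (adjusted p = 0.0249, and 0.0906 without culture 2 or 0.146 without culture 3). Over all named genes with a window, the letters were present in 10.0% of 630 that fell, 18.3% of 701 that rose and 12.5% of 7007 tested. Among the growth and metabolism targets measured, 10 of 27 windows held CACGTG (37.0%), and among the nucleolar ones 4 of 19 (21.1%). TTTGGCGC was in 4 of 13 windows of the cell cycle targets (30.8%).

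The genes whose culture values lay closest to those of Mycn were sought among 7801 named genes measured in all 3 cultures, by the root mean square difference of the 3 log2 ratios. They were Il16, a cytokine gene (0.151), Megf6, a gene of a protein with EGF-like repeats (0.188), Pcsk6, a proprotein convertase gene (0.202), Cavin2, a caveola component gene (0.218), and Fmod, a collagen-binding proteoglycan gene (0.221). Their own mean log2 ratios were -2.19 ± 0.22 for Il16, -2.44 ± 0.27 for Megf6, -2.17 ± 0.12 for Pcsk6, -2.15 ± 0.20 for Cavin2 and -2.25 ± 0.027 for Fmod. All 5 were below 0 on all 6 arrays, which follows largely from how they were chosen. Cavin2 had a dye effect of -1.31, with -3.46 from arrays with epithelial RNA in Cy3 and -0.84 from the others. Its call ended over 6 arrays with no replicate block and no dye term. Likeness over 3 cultures describes only the size of the ratios.

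The chromosome neighbours of the measured network genes were then read in RefSeq gene order, 5 measured genes on each side, a comparison added after values were seen. Cyria, which encodes a RAC1-binding regulator of actin and lies next to Mycn with no protein-coding gene between them, had log2 ratios of -2.79, -2.72 and -2.52. It fell by 2.67 ± 0.14 (adjusted p = 8.3e-05), the 6th lowest of all features and below 0 on all 6 arrays. On the other side, Nbas, a gene of Golgi to endoplasmic reticulum transport that is often amplified with MYCN in tumours, had -1.08, -0.16 and -0.52, a mean of -0.59 ± 0.47 that did not pass (adjusted p = 0.083). Nbas did pass in the fit of the 6 arrays with a dye term and the replicate block (adjusted p = 0.0418), with the authors' value table (0.0326), with the scanner software's ratios (0.0309) and with median centring (0.0195). It also passed without culture 2 (adjusted p = 0.0161) and without culture 1, at means of -0.80 and -0.34, and its single dye orientations gave -1.35 and 0.18.

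Beyond these, 2 of the 10 Mycn neighbours rose, where 5.96% of all features did and 701 of 7007 named genes with a promoter window. Trib2, a pseudokinase gene, rose by 0.67 ± 0.035 (n = 2, adjusted p = 0.0109), and Gen1, a Holliday junction resolvase gene, by 0.44 ± 0.22 (adjusted p = 0.04). The Gen1 call ended without culture 2 (adjusted p = 0.134) or culture 3 (adjusted p = 0.26). Apart from Nbas, the 6 neighbours that did not pass lay between -0.14 and 0.14. The strong decrease thus included Mycn and Cyria and did not extend over the measured neighbours further out.

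Myc has relatives of the same genes nearby. Trib1, related to Trib2, rose by 0.45 ± 0.054 (adjusted p = 0.01, and 0.114 without culture 3), and Cyrib, related to Cyria, had 0.10 ± 0.52 (adjusted p = 0.828) with a dye effect of -2.12, so that single dye orientations gave -2.02 and 2.22. Of the 10 neighbours of Myc, 2 fell and 3 rose, with log2 ratios between -0.65 and 1.09. Over all features 11.9% changed, and a larger share of named genes. The highest was Washc5, a gene of the actin-regulating WASH complex, at 1.09 ± 0.079, with 0.73 at its other probe. Nsmce2 rose by 0.70 ± 0.25, although 3 of 6 arrays were below 0 (dye effect -1.12). Ccn4, at -0.65, was saturated in epithelial RNA on 5 arrays. Sqle, at -0.39, had other probes at -0.23, 0.010 and -0.15.

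Next to Mxi1, Add3, which encodes a membrane skeleton protein of the adducin family, fell by 1.26 ± 0.11 (adjusted p = 0.000405), and its other probes gave -0.91 and -0.49. It was the only one of 10 Mxi1 neighbours that fell, and 1 rose, beside 5.92% and 5.96% of all features. Of 7007 named genes with a promoter window, 630 fell and 701 rose. None of the 10 measured neighbours of Mxd1 passed the threshold at adjusted p under 0.05 in limma. Of them, 3 had an unadjusted p under 0.05, as had 4158 of all 17582 features.

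**Figure D4:**
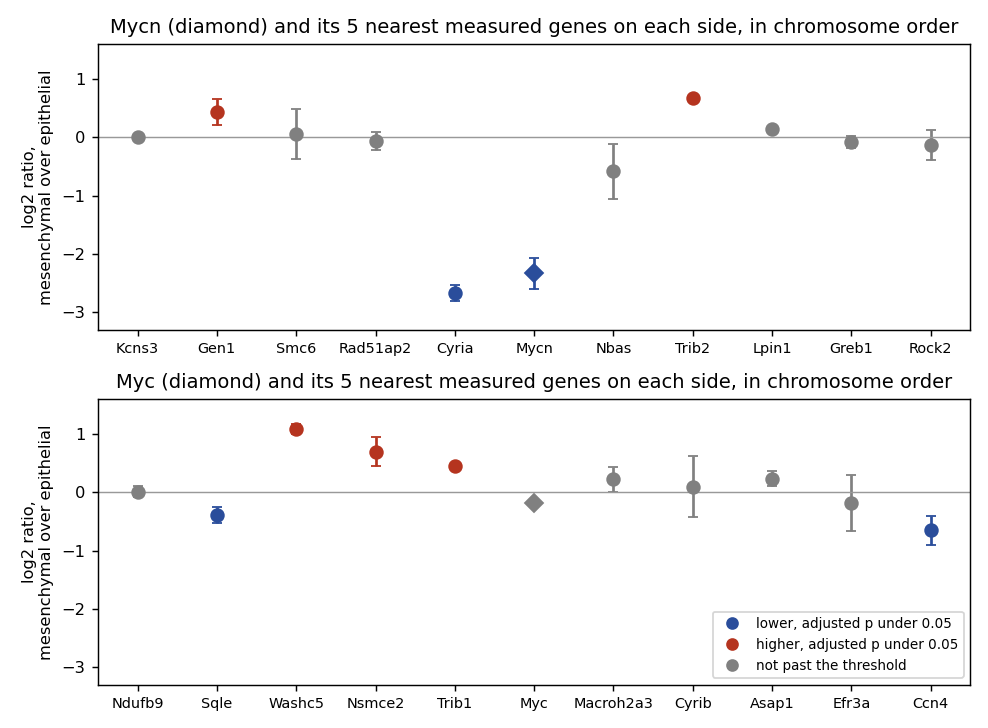
Mean log2 ratio of mesenchymal over epithelial RNA (vertical axis, bars for SD over cultures) for Mycn and Myc (diamonds) and their 5 nearest measured genes on each side in chromosome order, with blue for genes that fell, red for genes that rose and grey for those not past the threshold. Mycn at -2.33 and the adjacent Cyria at -2.67 stand apart from the other neighbours of Mycn, and no such pair is seen at Myc.

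The labelled cell type was checked by its markers. Of 12 markers of ovarian surface epithelium, 8 were measured, all well above background for both RNAs on the 6 arrays. The same held for all 7 granulosa, 5 theca, 4 leukocyte and 3 endothelial markers measured. For smooth muscle and pericytes it held for 4 of 5 in each RNA, so the flag did not separate cell types. In mesenchymal cells 6 of the 8 surface epithelium markers fell with Mycn. Among them were the mesothelin gene Msln (-2.07) and the membrane glycoprotein gene Gpm6a (-2.98). The keratin gene Krt7 fell by 1.83, but with saturated probes left out it did not pass (-0.37, adjusted p = 0.0801 in limma). The list's summed level went from between 18.2 and 18.3 log2 intensity in epithelial RNA to between 17.0 and 17.5 in mesenchymal RNA. Of the markers of other cells, 1 of 7 granulosa markers fell (Inhbb, -0.64) and 1 of 5 smooth muscle and pericyte markers fell (Actg2, -0.44). None of 5 theca, 4 leukocyte and 3 endothelial markers passed in limma. Of these, 1, 0 and 2 had an unadjusted p under 0.05, as had 4158 of all 17582 features. The Actg2 call ended without culture 2 (adjusted p = 0.149) or culture 3 (adjusted p = 0.161). Their part in the Mycn result was not tested.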

How the data were processed

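The arrays were 2-colour Agilent mouse oligonucleotide arrays of 3 cultures, with both RNAs of a culture on 2 dye-exchanged arrays treated as 1 replicate. Per the labels, cells were taken at 80% confluence and amplification started from 4 µg of total RNA. The deposited spot intensities are linear mean signals and local backgrounds as scanned, per the file headers. Per the file headers, the scanner software took the deposited log10 ratios (Cy5 over Cy3) from background-subtracted, dye-normalised intensities. In the value table deposited by the authors, each column is on the log10 scale and matches, for mesenchymal over epithelial, the difference of 2 arrays' log10 ratios divided by 2 (correlation 1, medians 0.00555, -0.0101 and -0.00233). Its scale and centring are thus settled. The direction of all ratios here was read from the dyes given in the array names. The submitters' processing notes list limma without a version. The genome build is not given in the sources used here.

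Background was handled with normexp at an offset of 50, and loess within arrays gave the log2 ratios used, in limma 3.58.1 under R 4.3.3. Control spots and outlier-flagged spots (61 to 1639 per array) were left out. Of 20371 probes, 43 were removed because neither RNA was well above background on at least 4 of 6 arrays, and 18.5% to 81.5% of negative control spots carried that flag too. The brightest probe stood for each gene, a culture needed both arrays, and at least 2 cultures were needed. Levels are log2 channel intensities after loess and Aquantile scaling. Each ratio was tested against 0 with lmFit and eBayes, and p-values were adjusted over all 17582 features, 9957 of them named. Across genes, which are not independent, the cultures' ratios correlated at 0.61, 0.65 and 0.89. Names were matched to a RefSeq table of GRCm38.p6.

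All network probes were named. From each list up to 4 called genes with the largest change were named, or the 2 brightest measured where fewer than 2 were called. For Mycn, called with an absolute log2 ratio of at least 1, the 5 most similar genes were named. The members and lists were chosen with earlier results of these data known. Apex1, E2f3, Odc1 and the chromosome neighbours were named after their values were seen. The steps were tested on simulated data. Alternatives were tried in background correction, normalisation, filters, probe choice, variance model, replicates, dye orientation and the model of the 6 arrays.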

Additional observations from a re-analysis of the deposited data

How the results depend on the processing

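The Mycn decrease passed the threshold under all 17 alternatives, with log2 ratios from -2.77 to -1.89 and an adjusted p of at most 0.00303 in limma, and from -2.42 to -2.18 where both dyes entered. Myc passed under none of the 17 (-0.22 to -0.14). With the replicate block and a dye term over 6 arrays, Mycn stayed at -2.33, 2496 features changed in place of 2088, and 1 network gene was called. Mxi1 passed without culture 1 (0.24, adjusted p = 0.0126) and on arrays with epithelial RNA in Cy5 alone (0.38, adjusted p = 0.0342), so that 2 network genes were called in either case, and 1 to 2 over the cultures left out. Over the cultures left out, Mxi1 ranged from 0.15 to 0.24 and Mxd1 from -0.076 to 0.0097. Mxd1 turned positive without culture 2 (0.0070), without culture 3 and on arrays with epithelial RNA in Cy3 alone (0.11). With culture 1, 2 or 3 left out, 5154, 1149 and 818 features changed, and 7076 and 5879 on arrays with epithelial RNA in Cy3 and in Cy5 alone. The count was 888 over 6 arrays with no replicate block and no dye term. In the same order of cultures left out, 57, 13 and 7 genes of the pathway lists changed. A dye effect was called for 2 network genes, for 3 without culture 1, and for 1 with the scanner's processed ratios, with median centring, without culture 2 or without culture 3.

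Signs turned for Sin3a with median centring (-0.0030), the mean of its probes (-0.15), no saturated probes (-0.32) and Cy3 epithelial arrays alone (-0.0051). Skp2 turned with median centring (-0.021), without culture 2 (-0.0014), without culture 3 (-0.039) and on those Cy3 arrays (-0.36, adjusted p = 0.0196), with 0.094 without culture 1 and 0.40 on the Cy5 epithelial arrays alone (adjusted p = 0.0371). Also on those Cy3 arrays, Mlxipl gave 0.29, Mrto4 -0.44, Tfrc -0.20 and Cyrib -2.02. Over the cultures left out, Cyrib ranged from -0.071 (without culture 2) to 0.40 (without culture 1), with -0.029 without culture 3, and Aurka from -0.030 (without culture 1) to 0.16 (without culture 2). Aurka gave 0.53 on the Cy3 epithelial arrays (adjusted p = 0.0139). On arrays with epithelial RNA in Cy5 alone, Aurka gave -0.35, Sin3b -0.045, Rrs1 0.013, Nbas 0.18 and Cyrib 2.22. With the mean of their probes, Birc5 (0.13, adjusted p = 0.429) and Cdc25a (-0.23, adjusted p = 0.0873) were not called. The calls on Slc1a5, Pdgfrb, Clu, Ndrg1, Cyria and Add3 held under all 17 alternatives. Leaving out a culture leaves 1 residual degree of freedom, so those fits borrow nearly all of their spread from other genes. The cause of these shifts was not tested. Precision is limited by 3 cultures, by saturation of bright probes and, at the dim Mxi1 probe, by a signal near background.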
